A study of Mus musculus with 42 samples.

Results

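Interleukin 10 (IL-10), its receptor and the proteins that carry its signal were followed in macrophages with and without tristetraprolin (TTP). The 7 genes, chosen by symbol, were Il10, the receptor chains Il10ra and Il10rb, the kinases Jak1 and Tyk2, the transcription factor Stat3 and the interleukin 4 receptor chain Il4ra. Each had 1 row among the 21951 genes of the expression table and 1 among the 12558 genes of the decay table. The question was how their mRNA levels and mRNA decay differed between genotypes along the response to lipopolysaccharide (LPS), a bacterial cell wall component.

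IL-10 is a cytokine that macrophages release after LPS and that restrains their own production of inflammatory mediators. It binds the ligand-specific chain encoded by Il10ra, which is joined by the chain encoded by Il10rb, a chain shared with other class II cytokines such as IL-22 and the interferon lambdas. Jak1 binds the former chain and Tyk2 the latter, and both kinases lead to phosphorylation of Stat3, which enters the nucleus and turns on the genes that IL-10 induces. Il4ra, the chain through which IL-4 and IL-13 act, is itself known to be raised by IL-10 in macrophages. TTP, encoded by Zfp36, binds AU-rich stretches in 3′ untranslated regions (3′ UTRs) and recruits enzymes that shorten the poly(A) tail, which leads to mRNA decay.

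The cells were bone marrow-derived macrophages of C57BL/6 mice aged 7 to 9 weeks, grown with CSF-1 from L929 cells. WT cells came from littermates of ΔM mice, in which loxP-flanked Zfp36 is deleted by a Cre driven by the lysozyme M promoter, which is active in the myeloid lineage. Cells were left untreated (LPS 0 h) or were given 10 ng/ml of LPS, for either 3 or 6 h, and at both of these times RNA was also taken 45 and 90 min after addition of actinomycin D (5 µg/ml), which stops transcription. The 42 libraries formed 14 groups of 3 biological replicates. The deposited tables give 1 pooled value per group, so the spread between replicates and the depth of the libraries are not given, no test between groups could be run from these values, the authors' own fold changes and FDRs were not used, and every value below is the authors' deposited value or was computed from it.

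Zfp36, the targeted gene, stood at 118, 1017 and 1782 FPKM in WT at LPS 0, 3 and 6 h and at 5.98, 16.3 and 31.0 FPKM in ΔM (FPKM, fragments per kilobase of transcript, scaled to the number of mapped fragments). All 7 macrophage markers were above 5 FPKM in the 6 groups without actinomycin D, with Mertk lowest at 5.36 to 11.4 FPKM. Their sum was lower in ΔM at each time, 12215 FPKM in WT and 9819 in ΔM at 0 h, 8455 and 6457 FPKM at 3 h, and 6331 and 4926 FPKM at 6 h. Lyz2, which encodes lysozyme M, made up most of this gap. It stood at 6936 FPKM in WT and 4067 in ΔM at 0 h. At 3 h the values were 4841 and 3098 FPKM, and at 6 h 3541 and 2043 FPKM. Its log2 ratios of ΔM to WT were -0.77, -0.64 and -0.79. The other markers went both ways, with Cd68 higher in ΔM at 0 and 6 h and Adgre1 lower in ΔM at each time. T cell, B cell, dendritic cell, natural killer and mast cell, and stromal markers summed to at most 3.40 FPKM in any group, and Cd3e, Ms4a1 and Pdgfra were at or near 0 throughout. The sum of 5 markers of neutrophils and their precursors was 16.0 FPKM in WT and 34.2 in ΔM at 0 h, 1.90 and 2.54 FPKM at 3 h, and 4.85 and 16.4 FPKM at 6 h, nearly all of it S100a8 and S100a9, whereas Mpo and Elane were at or below 0.31 FPKM. The part of these marker differences in those of the 7 genes was not tested.

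The binding sites of TTP in these mRNAs are shown first, because the genes differ in whether a TTP site is listed in their 3′ UTR. The paper kept only sites above a minimum number of crosslinks that were found in all replicates. A gene without a listed site may therefore still have been crosslinked to TTP. The study's list of sites in macrophages after LPS for 6 h names 496 genes, and 3 of the 7 genes are among them. Il10 has 7 listed sites, all in its 3′ UTR, Il10ra has 4, all in its 3′ UTR, and Jak1 has 2, both in introns. Il10rb, Tyk2, Stat3 and Il4ra have none in the list used here. The study's separate list of sites at LPS 3 h was not used. The 13 site sequences were identical to the mm9 reference at their coordinates. The sites that hold the AU-rich pentamer AUUUA and are longer than the pentamer itself follow, written as DNA from 5′ to 3′ with every ATTTA in capitals, and sites longer than 30 bases are given by their last 30.
Il10, chr1:132920952-132920981, plus strand: cgtttgtacctctctccgaaatATTTAtta
Il10, chr1:132920986-132921015, plus strand: tgatacctcagttcccattctATTTAttca
Il10, chr1:132921054-132921083, plus strand: attataattttacagtATTTAttattttta
Il10, chr1:132921116-132921128, plus strand: tttatagtATTTA
Il10ra, chr9:45062210-45062231, minus strand: ggaacctttATTTATTTAtttg
Il10ra, chr9:45062196-45062205, minus strand: cttATTTAtt
Jak1, chr4:100877844-100877863, minus strand: cattagtttttATTTATTTA

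The Il10 sites lie in 1 cluster of 201 bases, from base 101 to base 301 after the stop codon of a 3′ UTR of 706 bases. The first 3 sequences each hold the heptamer UAUUUAU, the letters TTP is known to prefer, and the Il10ra site of 22 bases holds overlapping copies of it. The Il10ra sites lie within 111 bases and begin 1367 bases after the stop codon of a 3′ UTR of 1691 bases, in its far part. Of the 8 sites in the 3′ UTRs of these genes with at least 7 bases, 6 hold AUUUA, 6 UAUUUA and 5 UAUUUAU. Among 263 such sites of other genes, which could be read whole in a list with 38 shortened rows, 32.7%, 25.1% and 17.1% hold these letters. Those sites are shorter, with a median of 14 bases and 14.4% of at least 30, whereas 3 of the 8 have more than 30, and the part of length was not tested. UAUUUA contains AUUUA and is contained in UAUUUAU, only the sense strand was searched, and a match is not itself a binding site.

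The whole 3′ UTRs of the 7 genes were searched in the same way, in the GENCODE transcript with the longest coding sequence. Il10 (chr1:132916422-132921551, mm9) has 6 copies of AUUUA, all within UAUUUA, and 5 of them lie inside listed sites. Of 2263 3′ UTRs of similar length (within 0.8 to 1.2 times), 1.72% hold as many copies of AUUUA or more, 0.398% as many of UAUUUA and 0.619% as many of UAUUUAU. Il10ra (chr9:45061922-45077232) has 3 copies of UAUUUA, each also a UAUUUAU, and all 3 lie inside listed sites. Of 2391 3′ UTRs of similar length, 49.6% hold as many AUUUA, 14.1% as many UAUUUA and 2.97% as many UAUUUAU. The other 3′ UTRs hold no UAUUUAU. Il10rb has 3 copies of AUUUA, Jak1 4, Stat3 2 and Tyk2 1. Il4ra, with the longest of these 3′ UTRs at 2418 bases, has no AUUUA, whereas 93.8% of 1964 3′ UTRs of similar length have at least 1.

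**Figure D1:**
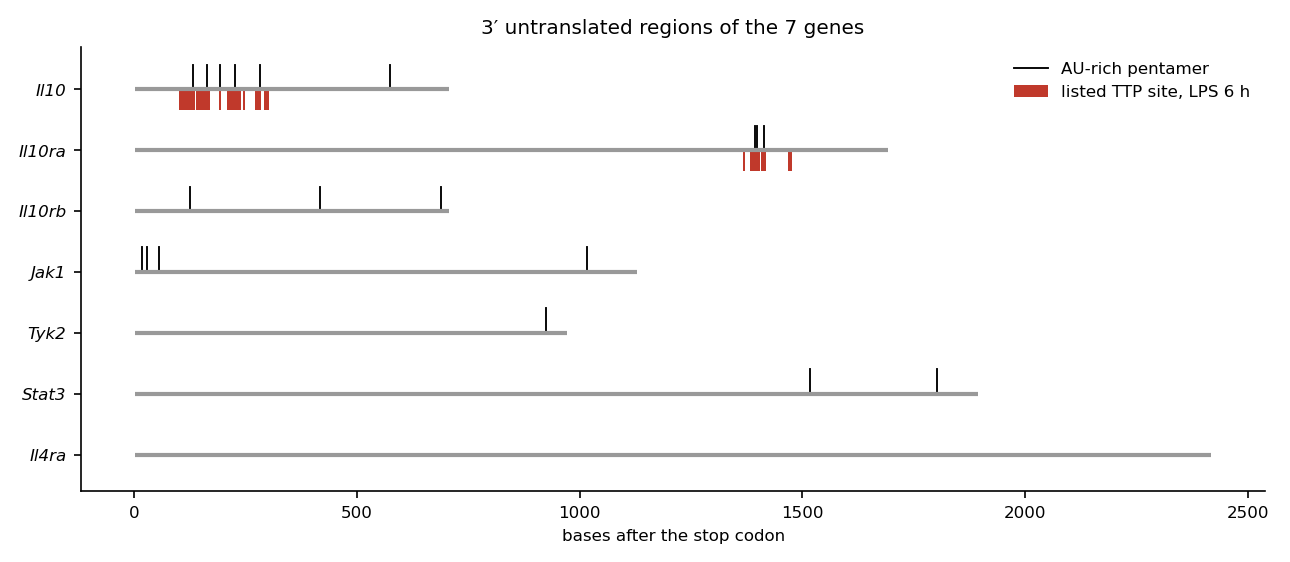
The 3′ UTR of each gene is drawn to scale from the stop codon, in bases, with AUUUA pentamers as ticks above the line and TTP sites listed at LPS 6 h as red blocks below it. The listed sites of Il10 lie between bases 101 and 301 and those of Il10ra between bases 1367 and 1477. Of these, 5 of the 7 in Il10 and 2 of the 4 in Il10ra hold a pentamer. Il4ra has neither sites nor pentamers.

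Il10 mRNA was low in untreated cells and rose more from 0 to 3 h than 99.5% of genes in WT and 99.7% in ΔM. Its level was 2.39 FPKM in WT and 4.79 in ΔM at 0 h, 71.8 and 171 FPKM at 3 h, and 129 and 681 FPKM at 6 h. ΔM was the higher group at each time, by 2.004-fold, 2.39-fold and 5.26-fold. On the scale used for all genes, the log2 ratio of FPKM plus a pseudocount of 1, which understates the change of low genes, ΔM exceeded WT by 0.77 at 0 h, 1.24 at 3 h and 2.39 at 6 h. With a call set at 2-fold on this scale, among genes with a mean of at least 1 FPKM, Il10 was called higher in ΔM at 3 and 6 h and was the single one of the 7 genes so called. None of the 7 was called at 0 h. Of all genes 0.925%, 0.613% and 0.378% were called higher in ΔM at 0, 3 and 6 h, and 1.19%, 0.947% and 0.815% were called lower, a call that none of the 7 genes had.

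The genotypes parted most between 3 and 6 h. Over this interval Il10 rose 1.80-fold in WT, by 0.84 on the log2 scale, which was not called, and 3.97-fold in ΔM, by 1.98. The difference of these changes was 1.14, which ranks 19 from the top of 10643 genes with a median of -0.01. The same difference was between -0.45 and 0.30 for the other 6 genes, lowest for Il4ra and highest for Il10ra. From 0 to 6 h, Il10 rose 54.2-fold in WT and 142-fold in ΔM.

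The receptor chains moved in opposite directions from 0 to 3 h. Il10ra stood at 12.9 FPKM in WT and 16.0 in ΔM at 0 h, peaked at 62.1 and 71.9 FPKM at 3 h, and was at 34.1 and 48.9 FPKM at 6 h. ΔM was the higher group at each time, with log2 ratios of 0.29, 0.21 and 0.51, none past 2-fold. The ratio at 6 h was above that of 97.4% of genes. Il10rb, the shared chain, was the most abundant of the 7 mRNAs in untreated cells, at 161 FPKM in WT and 182 in ΔM. It stood at 86.4 and 90.1 FPKM at 3 h and at 87.4 and 82.2 FPKM at 6 h. Its fall in ΔM was called (-1.01 from 0 to 3 h and -1.14 from 0 to 6 h) and that in WT was not (-0.89 and -0.87), a difference between genotypes that was not tested. The median gene also fell from 0 to 3 h, by 0.39 in WT and 0.34 in ΔM, and from 0 to 6 h by 0.60 and 0.55, and relative to that median the change of Il10rb in ΔM was -0.67 and -0.59, not past 2-fold.

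The kinases and Stat3 lay within 1.36-fold between genotypes at each time. Jak1 held one level, 42.7, 43.2 and 45.3 FPKM in WT and 44.5, 45.2 and 40.5 in ΔM at 0, 3 and 6 h. This is above the course of the median gene, by 0.40 (log2) in WT and 0.37 in ΔM at 3 h. Tyk2 was the lowest of the 7 mRNAs after LPS, at 5.86, 10.9 and 18.7 FPKM in WT and 5.91, 8.92 and 13.7 in ΔM. It rose past 2-fold from 0 to 6 h in each genotype (1.52 in WT and 1.09 in ΔM), and its log2 ratio of ΔM to WT was -0.42 at 6 h, above that of 6.87% of genes and not past 2-fold. Stat3 stood at 40.8, 100.1 and 274 FPKM in WT and at 54.1, 103 and 247 FPKM in ΔM. The groups lay within 1.32-fold of each other at each time, with ΔM higher at 0 and 3 h and lower at 6 h.

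Il4ra was further apart between genotypes before LPS than at 6 h. Its level was 9.05 FPKM in WT and 18.9 in ΔM at 0 h, 74.4 and 108 FPKM at 3 h, and 270.3 and 287 FPKM at 6 h. The ratio of ΔM to WT was 2.08, 1.46 and 1.06. On the scale with the pseudocount the ratio at 0 h was 0.98, just short of a call, and above that of 99.0% of genes.

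**Figure D2:**
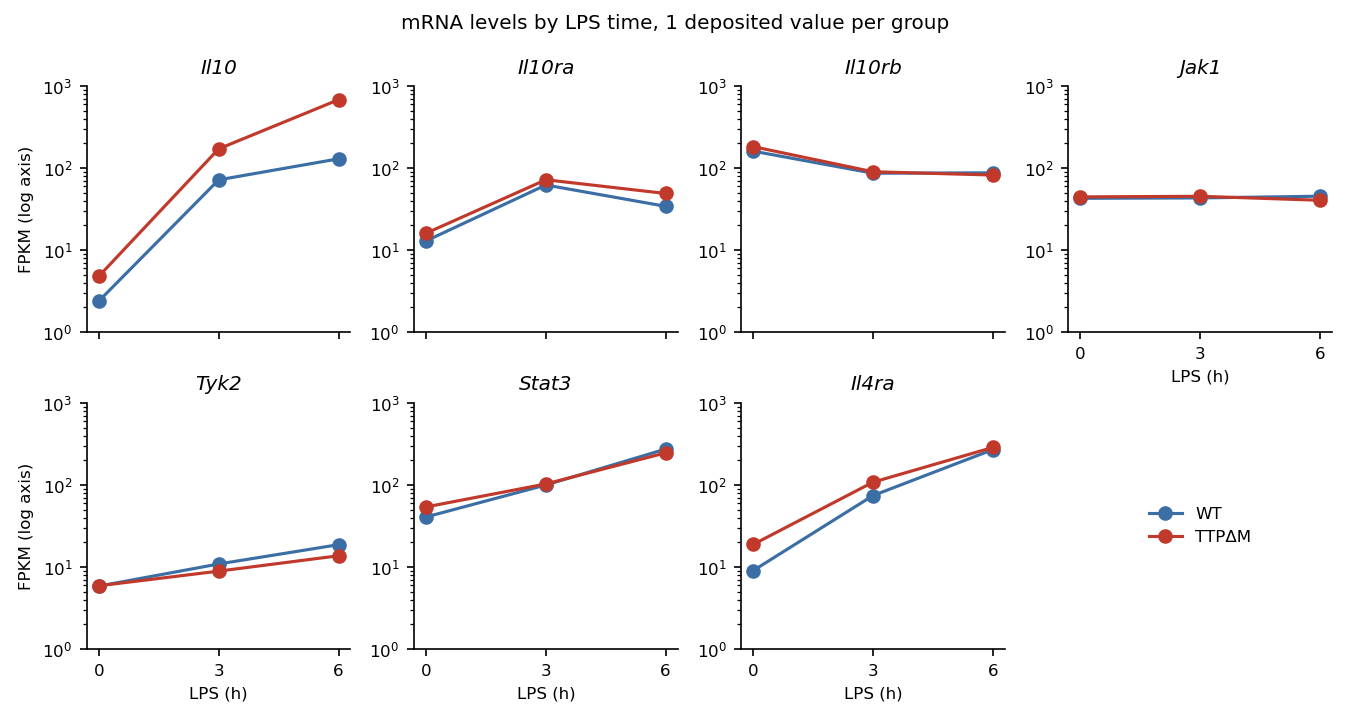
FPKM on a log axis against hours of LPS for each gene, with WT in blue and ΔM in red, and 1 deposited value per point without error. The lines of Il10 separate from 3 h (71.8 and 171 FPKM) to 6 h (129 and 681 FPKM), and those of Il4ra come together.

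The response to LPS itself touched most of these genes in both genotypes. From 0 to 3 h, 4 of the 7 were called higher in WT (Il10, Il10ra, Stat3 and Il4ra), against 7.41% of all genes, and 3 in ΔM (Il10, Il10ra and Il4ra), against 7.50%. Stat3 rose by 1.27 in WT and by 0.92 in ΔM, so that it lay on either side of the call. From 3 to 6 h, Stat3 and Il4ra were called higher in WT, against 3.80% of all genes, and these with Il10 in ΔM, against 3.45%. From 0 to 6 h, 5 of the 7 were called higher in each genotype, against 9.59% in WT and 8.73% in ΔM. Il10rb was the single gene of the 7 called lower, in ΔM from 0 to 3 h and from 0 to 6 h, where 11.6% and 25.3% of all genes were. In untreated WT cells the order from the highest level was Il10rb, Jak1, Stat3, Il10ra, Il4ra, Tyk2 and Il10. At 6 h it was Stat3, Il4ra, Il10, Il10rb, Jak1, Il10ra and Tyk2 in WT and Il10, Il4ra, Stat3, Il10rb, Il10ra, Jak1 and Tyk2 in ΔM. Whether neighbours in these orders differ beyond replicate spread cannot be said from 1 value per group.

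Decay was measured from the slope of log2 FPKM over 90 min of actinomycin D, with half-life as -1 divided by the slope and "stable" written by the authors from 180 min upward. FPKM is scaled within each library, so each slope compares a gene with the other mRNAs, and 35.8% to 44.8% of all slopes were above 0. Il10, Il10ra and Il4ra had a half-life under 180 min in WT at both times. Il10rb, Jak1, Tyk2 and Stat3 were stable in both genotypes at both times, like 74.8% to 80.3% of all genes in a group, with between 90.9% and 119% of their mRNA left after 90 min by the fitted line. Of the 5 genes with no TTP site listed in the 3′ UTR at LPS 6 h, these 4 were stable and Il4ra was not.

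Il10 decayed in WT and was stable in ΔM. In WT its half-life was 135 min at 3 h and 45.3 min at 6 h, and the fitted line left 63.0% and 25.2% of the mRNA after 90 min of actinomycin D. In ΔM it was written as stable at both times, where the slopes correspond to 635 and 266 min and leave 90.6% and 79.1%. The ΔM mRNA was thus called slower at both times, where slower means half-lives at least 2-fold apart or stable in ΔM alone. At 3 h Il10 was the single one of the 7 so called, against 6.86% of all genes, and at 6 h it was called with Il10ra, against 7.57%. None of the 7 was called faster in ΔM (8.04% and 2.29% of all genes). The slope difference of ΔM minus WT, given as log2 units over 90 min, was 0.53 at 3 h and 1.65 at 6 h for Il10. The first lies within the middle 95% of all genes, which spans -1.07 to 0.79 at 3 h, and the second is above that of 99.9% of genes at 6 h, where the span is -0.48 to 0.63.

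In WT the Il10 half-life was 2.98-fold shorter at 6 h than at 3 h, a change of slope of -1.32 over 90 min that 0.312% of genes exceeded. Il10 was the single gene of the 7 called faster at 6 h than at 3 h in WT, against 7.73% of all genes, and none was called slower, against 6.21%. In ΔM none of the 7 was called in either direction (3.69% faster and 8.93% slower). The Il10 slope in ΔM changed by -0.20, and 17.0% of genes had a lower value. By these slopes the Il10 half-life in ΔM was also shorter at 6 h (266 min) than at 3 h (635 min), by 2.39-fold. Both were written as stable, so no call was made, and the absence of a call does not confine the shortening to WT. The 3 and 6 h decay series came from independent replicates, so the LPS time and the set of replicates cannot be told apart. From level and slope, the loss of Il10 mRNA at the start of actinomycin D was 0.369 FPKM per min in WT and 0.187 in ΔM at 3 h, and 1.98 and 1.78 FPKM per min at 6 h. At 6 h these values were close to each other, although the ΔM pool was 5.26 times the size of the WT pool. Each rests on 1 level and 1 slope without error, so their order cannot be weighed.

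By the fitted slopes, Il10ra had the shortest half-life of the 7 mRNAs at every point measured. In WT at 6 h Il10 was close to it, at 45.3 min, and without error their order there cannot be weighed. The Il10ra half-life was 39.0 min in WT and 63.1 min in ΔM at 3 h, and 44.2 and 98.3 min at 6 h. ΔM had the longer half-life both times, by 1.62-fold and 2.22-fold, of which the latter was called. The slope differences, 0.88 at 3 h and 1.12 at 6 h, were above those of 98.3% and 99.6% of genes. After 90 min at 6 h, 24.4% of Il10ra mRNA was left in WT and 53.0% in ΔM. Unlike Il10, Il10ra still decayed in ΔM, where 7.39% of genes had a steeper slope at 6 h.

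Il4ra decay differed between genotypes at 3 h more than at 6 h. Its half-life was 61.5 min in WT and 105 min in ΔM at 3 h, and 119 and 136 min at 6 h. The slope difference was 0.61 at 3 h, above 94.3% of genes and within their middle 95%, and 0.10 at 6 h, above 60.3%. From 3 to 6 h the WT half-life lengthened 1.93-fold and that of ΔM 1.30-fold, in the opposite direction from Il10. None of these was past the call, but with slopes centred on the median gene Il4ra was called slower in WT at 6 h than at 3 h.

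**Figure D3:**
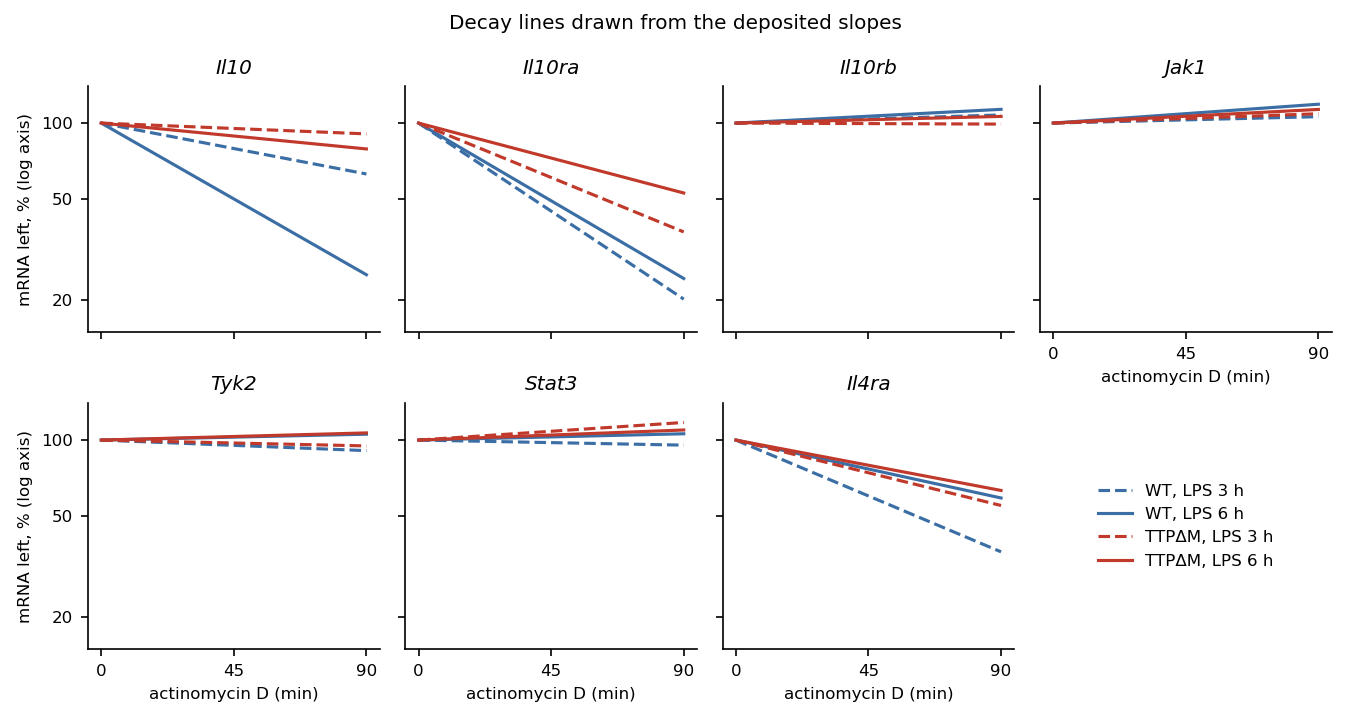
Percentage of mRNA left on a log axis against minutes of actinomycin D, drawn from the deposited slopes, with WT in blue, ΔM in red, LPS 3 h dashed and LPS 6 h solid. The steepest line of Il10 is that of WT at 6 h (25.2% left at 90 min), while Il10rb, Jak1, Tyk2 and Stat3 have lines near 100%.

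Level and decay were set side by side for every gene. Il10 lay apart from the other genes at 6 h, with no other of 10219 genes at or above it in both the level ratio and the slope difference, and 6 of 10653 did so at 3 h. Il10ra combined a slope difference of 1.12 at 6 h with a level ratio of 0.51, and Il4ra a slope difference of 0.10 with a ratio of 0.09. Both measures use the libraries at 0 min of actinomycin D, so a value of ΔM that is too high there raises the ratio and lowers the slope. They are therefore not independent of each other, and no correlation is given.

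**Figure D4:**
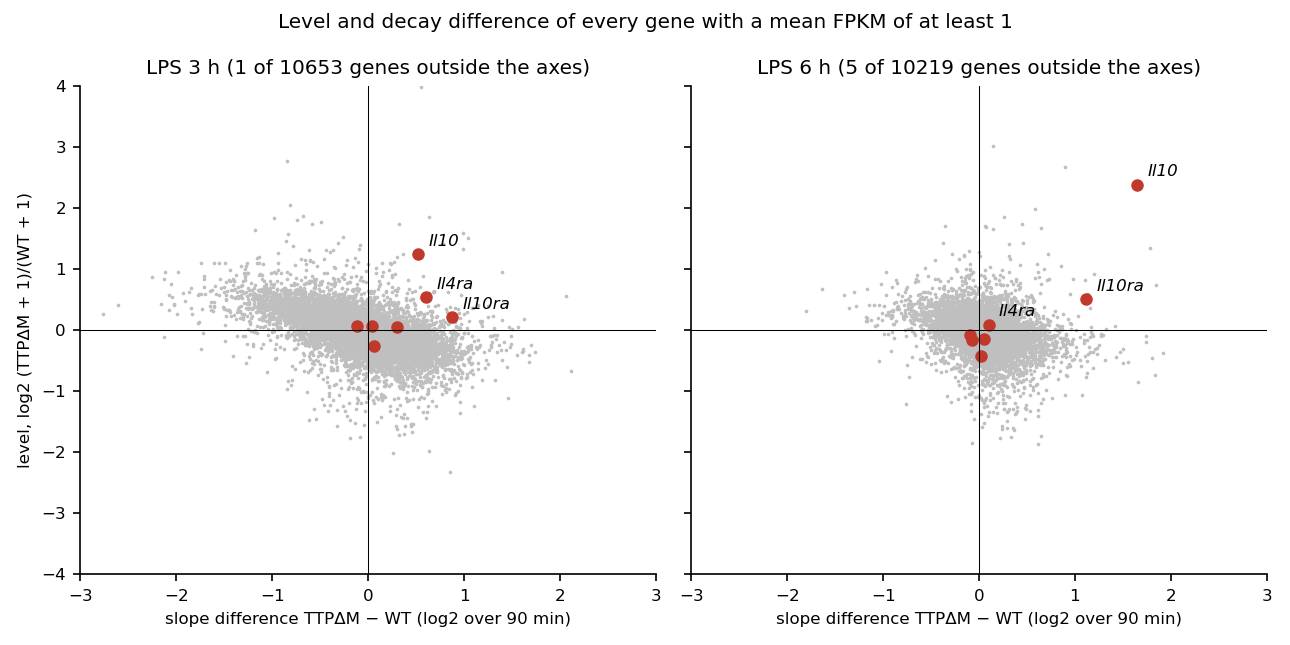
Each grey point is a gene with a mean of at least 1 FPKM, with the slope difference of ΔM minus WT (log2 over 90 min) on the x axis and the level ratio of ΔM to WT (log2, pseudocount of 1) on the y axis, at LPS 3 h and 6 h. The red points are the 7 genes, and Il10 at 6 h stands at 1.65 and 2.39, in the upper right and away from the grey points.

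Genes with the most similar course over the 6 groups were sought by the distance between log2 values after removal of each gene's mean, among 6545 genes that reached 10 FPKM. For Il10 the 5 nearest were Cd274, which encodes the checkpoint ligand PD-L1, Il15ra, a receptor chain of IL-15, the chemokine Ccl3, and the interferon-inducible Iigp1 and Ifit2, at distances from 1.38 to 1.75. Their levels at 6 h in WT and ΔM were 315 and 534 FPKM for Cd274, 186 and 309.9 for Il15ra, 4184 and 16518 for Ccl3, 43.6 and 61.2 for Iigp1, and 620 and 708 for Ifit2. Ccl3 had the ratio closest to that of Il10 but, unlike Il10, was lower at 6 h than at 3 h in WT (6938 FPKM). Its mRNA was also written as stable in both genotypes at both times. Il15ra had a half-life of 146 min in WT at 6 h and was stable in ΔM. Cd274, Iigp1 and Ifit2 were stable in both genotypes at 6 h. The nearest genes lay at smaller distances for the other 3 mRNAs searched, but this distance also grows with the size of the change of a gene. Pearson correlations over the 6 groups were 0.965 to 0.983 for the genes nearest to Il10 and 0.986 to 0.999 for those nearest to the other 3. Il10ra had Mafk, Papd7 and Sap30 within 0.38, Il4ra had Isg20, Upp1 and Fpr2 within 0.44, and Stat3 had Mlkl, Uba7 and Parp12 within 0.33. Half-lives at 6 h were 73.9 min in WT and 112 min in ΔM for Mafk, which encodes a small Maf transcription factor, and 73.1 and 109 min for Papd7. Sap30 went the other way, stable in WT and at 108 min in ΔM.

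Genes that IL-10 is known to induce in macrophages through Stat3 lay, apart from Zfp36, within 2-fold between genotypes at 3 and 6 h. Of 10 listed, 9 passed the filter. At 6 h 1 was called in ΔM against WT, which was the deleted Zfp36 itself, and the median log2 ratio was 0.10, beside -0.03 for all genes. At 3 h the median was -0.07 and Zfp36 was again the single call. At 0 h the median was 0.41, beside -0.05 for all genes, Zfp36 was lower, and Il1rn, which encodes the IL-1 receptor antagonist, was called higher at 97.4 FPKM in WT and 239.6 in ΔM. At 6 h Il1rn stood at 5548 and 5227 FPKM. Socs3, the feedback inhibitor of cytokine receptors, stood at 418 and 456 FPKM at 6 h, and Bcl3, a nuclear I-kappa-B protein that restrains NF-kappa-B targets, at 517 and 482 FPKM. From 0 to 6 h 8 of the 9, the deleted Zfp36 among them, were called higher in each genotype, against 9.59% of all genes in WT and 8.73% in ΔM. The ninth, Hmox1, named after its values were seen, changed by -0.47 in WT and by -1.26 in ΔM, where it was called lower. Socs3 was short-lived in both, with half-lives of 21.9 min in WT and 25.8 min in ΔM at 6 h. Bcl3 was called slower in ΔM at 3 h, with 65.2 and 139 min, as was Sbno2, named after its values were seen, at 95.3 min and stable. These were 2 of 9, against 6.86% of all genes, and 0 of the 9 were called slower at 6 h.

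Other Janus kinases and STAT factors were called in neither direction in ΔM against WT, with 8, 8 and 7 of 8 passing the filter at 0, 3 and 6 h. Their median log2 ratios were 0.09, 0.08 and 0.09. Jak2, the kinase of many single-chain cytokine receptors, rose from 3.56 to 68.7 FPKM in WT and from 3.86 to 57.4 FPKM in ΔM from 0 to 6 h. Stat2, which carries interferon signals, stood at 19.3 FPKM in WT and 33.4 in ΔM at 0 h, and at 153 and 163 FPKM at 6 h. Stat5a, which carries signals of CSF-2 and IL-3, peaked at 3 h at 79.3 FPKM in WT and 60.2 in ΔM. None of these kinases and factors was called slower or faster in ΔM at either time.

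Of 8 inhibitors of JAK and STAT signalling, 7, 8 and 8 passed the filter at 0, 3 and 6 h. Between genotypes 1 was called, lower in ΔM at 3 h, against 0.947% of all genes. Cish, an inhibitor of Stat5 signals, was lower in ΔM at 3 h, at 124 FPKM in WT and 54.1 in ΔM, after 0.56 and 0.24 FPKM at 0 h. Socs1, an inhibitor of interferon receptors, reached 488 FPKM in WT and 538 in ΔM at 3 h and stood at 159 and 206 FPKM at 6 h, with half-lives of 18.6 and 19.7 min at 6 h. Pias3, which inhibits DNA binding of Stat3, fell from 43.2 to 9.38 FPKM in WT and from 34.5 to 11.2 FPKM in ΔM from 0 to 6 h. None of the inhibitors was called slower or faster in ΔM at either time.

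**Figure D5:**
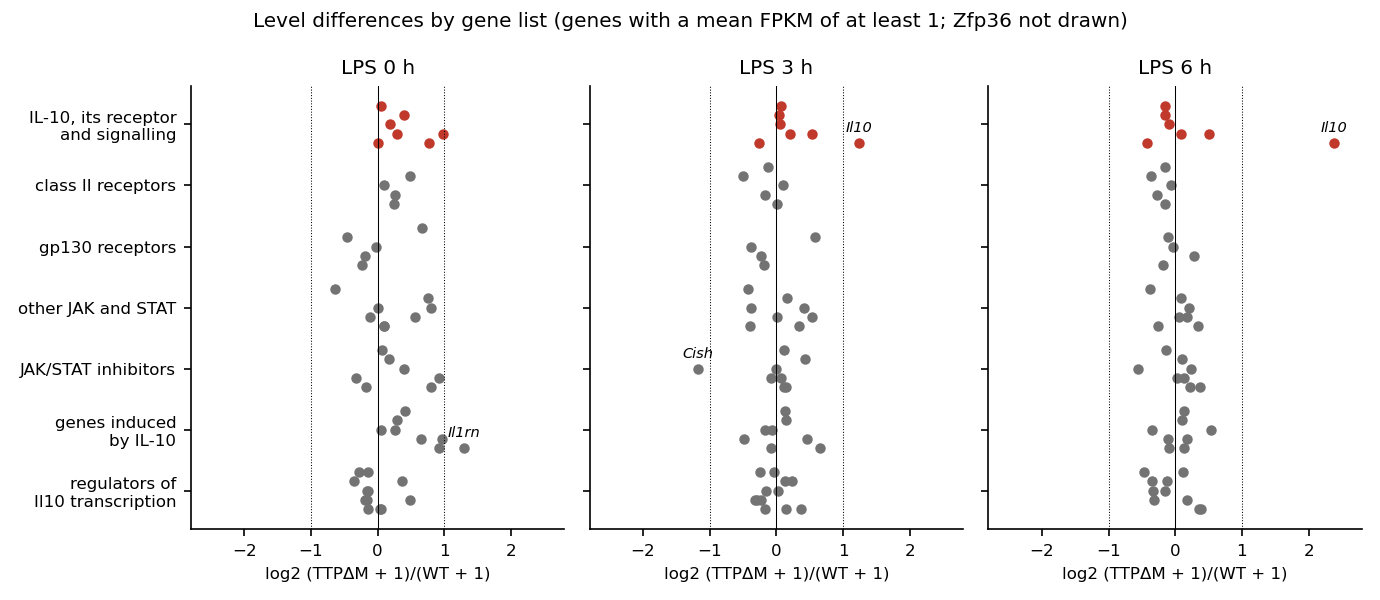
Each point is a gene with a mean of at least 1 FPKM, placed by its log2 ratio of ΔM to WT (pseudocount of 1) at LPS 0, 3 and 6 h, in rows by gene list, with the 7 genes in red, dotted lines at 2-fold and the deleted Zfp36 left out. Il10 lies past the line at 3 h (1.24) and 6 h (2.39), and of the other genes drawn Il1rn at 0 h and Cish at 3 h do.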

How the data were processed

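Per the paper's methods, libraries made from total RNA with the SENSE mRNA-Seq kit were sequenced as 100-base single-end reads and mapped with GSNAP to mm10, and genes were quantified with Mix2. The authors deposited FPKM values, 1 pooled value per group, and half-lives and slopes from a linear fit of log2 FPKM on minutes of actinomycin D. How replicates were pooled is not given in the sources used here. The authors' deposited log2 fold changes and FDRs from DESeq2 of ΔM against WT were not used. Ratios, calls and shares of all genes were computed in Python 3.11.15 with numpy 2.4.6 and pandas 2.3.3, with a pseudocount of 1 FPKM, a minimum mean of 1 FPKM and a call at 2-fold. Positions, 3′ UTRs and site sequences are on mm9, from GENCODE and the study's crosslinking list, joined by gene identifier. The named genes are the 7 members, Zfp36, at most 4 called genes of each list by largest log2 ratio, and the nearest profiles; 1 gene that this rule names is not reported here. Members and lists were chosen with earlier results of these data known.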

Additional observations from a re-analysis of the deposited data

How the results depend on the processing

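No paired analysis was possible because the tables hold 1 value per group, and for the same reason no replicate could be left out. Between ΔM and WT the calls of Il10 at 3 and 6 h, and of Il10 and Il10ra decay at 6 h, were the same under each alternative run. At 0 h 1 of the 7 genes, Il4ra, was called higher with a pseudocount of 0.1 FPKM or with ratios centred on the median gene, and 2, with Il10, at 1.5-fold. Of 11459 genes, 161, 121 and 362 were called higher under these settings, in place of 106. At 1.5-fold 4 rather than 2 were called higher in WT from 3 to 6 h, against 1010 rather than 405 of 10661 genes. Centring left 0 called lower in ΔM from 0 to 3 h and from 0 to 6 h, where Il10rb had been. Calling slopes at least 0.5 log2 units apart over 90 min gave 3 slower in ΔM at 3 h (Il10, Il10ra and Il4ra) in place of 1. Among 10653 genes, 996 rather than 731 were slower by this rule. With centred slopes 1 in place of 0, Il4ra, was called slower in WT for 6 h against 3 h, as were 670 rather than 656 of 10564 genes. Of 102 alternative counts 94 were within 1.5 times the reported one. Of 433 alternative values of single genes 403 moved by at most 0.25 log2, 30 by more, all of them LPS changes, and none that was called changed sign.

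The number of all genes called moved more. Genes higher in ΔM at 0, 3 and 6 h numbered 106, 66 and 39, against 161, 120 and 74 with a pseudocount of 0.1 FPKM and 362, 360 and 184 at 1.5-fold. Genes slower in ΔM at 3 and 6 h numbered 731 and 774, against 379 and 340 at a mean of at least 5 FPKM and 1316 and 1226 with stable set from 360 min. With no filter, 1230 were slower and 476 faster at 6 h, in place of 774 and 234, and with the rule on slopes 1704 rather than 857 were faster at 3 h and 510 slower at 6 h. At 1.5-fold the genes higher at 6 h than at 3 h went from 405 to 1010 in WT and from 365 to 889 in ΔM. Centring turned the calls from 0 to 6 h from 1082 higher and 3262 lower to 1789 and 1148 in WT, and from 970 and 2810 to 1646 and 1044 in ΔM. From 0 to 3 h it turned 842 and 1463 to 1201 and 624 in WT and 844 and 1307 to 1175 and 597 in ΔM, and from 3 to 6 h 405 and 672 to 656 and 402 and 365 and 638 to 569 and 353. For decay in ΔM against WT at 3 h it turned 731 slower and 857 faster to 823 and 563, and for ΔM at 6 h against 3 h 936 and 387 to 596 and 422. Without depth or replicate values, small differences cannot be weighed.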

Other observations

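Kinases and transcription factors known to act on Il10 transcription were called in neither direction in ΔM against WT at any time, among 12, 12 and 10 of 13 that passed the filter. Their median log2 ratio was -0.14 at 0 h, -0.10 at 3 h and -0.14 at 6 h. Maf, a transcription factor that binds the Il10 promoter, fell from 51.6 to 17.2 FPKM in WT from 0 to 3 h and stood at 81.3 FPKM at 6 h, with 52.8, 19.2 and 106 FPKM in ΔM. Map3k8, the kinase Tpl2 upstream of ERK, reached 67.9 FPKM in WT and 87.8 in ΔM at 3 h, with half-lives of 31.4 and 45.9 min. Nfil3 stood at 49.9 and 39.1 FPKM and Prdm1, which encodes Blimp-1, at 10.9 and 11.95 FPKM at 6 h. At 6 h 2 of the 10 were called slower in ΔM, Nfkb1 and Creb1, named after their values were seen, against 7.57% of all genes. Their half-lives were 134 and 139 min in WT and written as stable in ΔM, where the slopes correspond to 256 and 501 min. Both slope differences, 0.32 and 0.47, lie within the middle 95% of all genes.

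Receptor chains near the IL-10 receptor were also called in neither direction between genotypes in level. Of 9 other class II cytokine receptor chains 4, 5 and 5 passed the filter at 0, 3 and 6 h. Ifngr1, the ligand-binding chain for interferon gamma, fell from 77.4 to 15.3 FPKM in WT and from 82.6 to 11.7 FPKM in ΔM from 0 to 6 h. It was called slower in ΔM at 3 h, with a half-life of 123 min in WT and stable in ΔM. Ifngr2 was called higher from 0 to 6 h in WT (52.0 to 125 FPKM), with 73.6 to 112 FPKM in ΔM, a difference between genotypes that was not tested. Il20rb reached 3.02 FPKM in WT and 3.04 in ΔM at 3 h. Among 6 receptors of the gp130 group, 5, 4 and 4 passed the filter. Csf3r, the receptor of G-CSF, rose from 19.0 to 296 FPKM in WT and from 30.8 to 276 FPKM in ΔM from 0 to 6 h. Il6ra stood at 11.3, 1.98 and 4.93 FPKM in WT and 9.79, 1.55 and 6.23 in ΔM. Il6st, which encodes gp130, fell past 2-fold in WT from 0 to 6 h (19.2 to 9.06 FPKM), with 16.2 to 7.89 FPKM in ΔM. Its log2 change in WT was -1.005, where the median gene changed by -0.60 and 28.9% of all genes were called lower. Lifr stood at 2.59 FPKM in WT and 1.61 in ΔM at 0 h. Il13ra1, a partner chain of Il4ra, rose from 2.47 to 19.2 FPKM in WT and from 4.27 to 17.4 FPKM in ΔM from 0 to 6 h. Of 3 other cytokines of the IL-10 family in the table, Il19 alone passed the filter, at 5.97 FPKM in WT and 3.99 in ΔM at 6 h.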
